A study of Mus musculus with 8 samples.

Results

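The replication-dependent histone genes are the genes that supply histone protein to newly copied DNA. They were taken as every gene whose name in the deposited tables follows the cluster nomenclature for H2A, H2B, H3 and H4 or the names of the linker histones H1f1 to H1f5, with names ending in -ps left out. This gave 65 of 55487 genes: 5 H1, 19 H2A, 17 H2B, 12 H3 and 12 H4 genes. The choice used names only, and 1 gene with a name ending in -ps was left out by it. RNA-seq of mouse bone marrow had been run on pre-Baso cells, the precursors of basophils, and on basophils, each from wild type littermate controls and from mice described as Nfil3-depleted, of strain C57BL/6J. Both populations were sorted as Lineage- CD34- ckit- CD200R3+ cells, with high staining by the MAR1 antibody to the IgE receptor for pre-Baso and intermediate staining for basophils. Each of the 4 groups had 2 libraries, which the labels call biological duplicates, and p-values measure the spread between these samples only. Nfil3 encodes a basic leucine zipper transcription factor. The Cre driver that removed the floxed Nfil3 and the ages of the mice were not given in the sources used here.

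Replication-dependent histone genes are transcribed in S phase, when the cell copies its DNA. Their mRNAs carry no introns and, in dividing cells, end in a stem-loop instead of a poly(A) tail. The stem-loop is bound by SLBP and cut by a complex guided by the U7 small nuclear RNA, and the mRNA is degraded when replication stops. H2A, H2B, H3 and H4 form the core of the nucleosome, and H1 binds the linker DNA between nucleosomes. Most of the genes lie in clusters, and NPAT drives their transcription from histone locus bodies. Replication-independent variants such as H3.3 are also made outside S phase, and the H3.3 genes have introns and poly(A) signals.

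On mm10, which is GRCm38, the genes fell into a large set on chromosome 13 and a smaller one on chromosome 3. The first block on chromosome 13 ran from 21715763 to 22043676 and held 24 genes. The second block, from 23531050 to 23934851, held 30 genes, 4 of the 5 H1 genes among them. Hist1h2al stood apart at 51202727 to 51203065 on chromosome 13 and is annotated as a processed pseudogene. The chromosome 3 cluster, from 96219865 to 96270132, held 10 genes and no H1 gene. A second member, H2ac14 in the first block, is annotated as an unprocessed pseudogene.

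The stem-loop is what sets these mRNAs apart, so its sequence is shown for members of each class and each stem variant found. A stem of 6 bases starting with GG, a loop of TT and any 2 bases, and the complementary stem were searched in the sense strand of the 65 annotated transcripts. The structure was present in 40 of them. In the lines below the stem-loop is in capitals with up to 5 flanking bases on each side, 5′ to 3′, from GENCODE M21 transcripts on GRCm38.
H1f2: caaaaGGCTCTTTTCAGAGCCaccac
Hist1h2ao: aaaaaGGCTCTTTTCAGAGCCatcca
H2ac20: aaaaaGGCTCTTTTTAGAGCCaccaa
H2bc3: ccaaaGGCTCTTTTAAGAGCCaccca
H3c2: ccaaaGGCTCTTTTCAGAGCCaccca
H3c3: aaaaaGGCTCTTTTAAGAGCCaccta
H4c6: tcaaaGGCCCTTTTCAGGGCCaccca
H4c11: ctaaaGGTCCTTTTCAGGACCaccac
H4c9: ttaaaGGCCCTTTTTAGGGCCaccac
The form shown for Hist1h2ao and H3c2, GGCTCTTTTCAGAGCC, was found in 24 members of the H1, H2A, H2B and H3 classes and in no H4 gene. The 10 H4 genes with a match had other stems. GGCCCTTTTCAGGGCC occurred in 6 of them, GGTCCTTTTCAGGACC in 2 and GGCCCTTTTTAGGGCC in 2. A further 5 members, 2 H2B and 3 H3 genes, carried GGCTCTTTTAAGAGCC, and H2ac20 alone carried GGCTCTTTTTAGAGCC. The other 25 annotated transcripts held no match, which says only that these letters are not in the annotated sequence.

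Sequence upstream of the start is shown for 5 members, 1 from each class, because members that moved together in these data could be compared by it. The 3 short motifs were searched on both strands in the 250 bases before the RefSeq start of 57 members: CCAAT, the TATA element TATAAA, and the octamer ATTTGCAT. Matches of different motifs were counted separately even where they could overlap. The windows below are from RefSeq on GRCm38.p6, written 5′ to 3′ on the strand of the gene, with matches on either strand in capitals.
H1f2 (chr13:23738557-23738806, plus strand): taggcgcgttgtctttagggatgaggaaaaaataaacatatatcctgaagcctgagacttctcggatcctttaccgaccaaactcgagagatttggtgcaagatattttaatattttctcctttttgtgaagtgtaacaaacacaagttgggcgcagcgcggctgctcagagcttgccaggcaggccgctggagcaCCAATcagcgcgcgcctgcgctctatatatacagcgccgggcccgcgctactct
H2ac13 (chr13:21716162-21716411, plus strand): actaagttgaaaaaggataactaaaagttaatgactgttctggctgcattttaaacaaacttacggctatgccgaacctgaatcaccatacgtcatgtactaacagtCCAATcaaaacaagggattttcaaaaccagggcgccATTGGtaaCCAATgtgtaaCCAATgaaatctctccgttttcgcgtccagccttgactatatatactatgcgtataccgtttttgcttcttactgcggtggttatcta
H2bc3 (chr13:23746484-23746733, plus strand): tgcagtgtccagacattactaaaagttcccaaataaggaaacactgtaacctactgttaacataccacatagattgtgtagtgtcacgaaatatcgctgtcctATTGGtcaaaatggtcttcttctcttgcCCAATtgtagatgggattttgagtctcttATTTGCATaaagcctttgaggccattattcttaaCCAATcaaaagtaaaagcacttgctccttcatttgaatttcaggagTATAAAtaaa
H3c8 (chr13:23535168-23535417, plus strand): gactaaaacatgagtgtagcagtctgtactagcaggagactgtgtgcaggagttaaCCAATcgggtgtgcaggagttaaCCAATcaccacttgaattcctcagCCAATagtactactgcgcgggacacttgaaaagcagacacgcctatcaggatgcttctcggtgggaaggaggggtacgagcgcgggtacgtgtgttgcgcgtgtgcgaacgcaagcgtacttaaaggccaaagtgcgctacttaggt
H4c11 (chr13:21734784-21735033, plus strand): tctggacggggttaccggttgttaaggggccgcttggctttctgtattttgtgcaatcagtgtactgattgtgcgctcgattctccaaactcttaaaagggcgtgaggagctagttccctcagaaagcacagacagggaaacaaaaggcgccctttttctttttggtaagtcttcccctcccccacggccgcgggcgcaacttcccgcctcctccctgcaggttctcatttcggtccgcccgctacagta
CCAAT was present in 47 of 57 windows (82.5%), against 33.85% of all 32851 RefSeq windows of this length. It was found in 5 of 5 H1, 16 of 16 H2A, 15 of 15 H2B and 8 of 10 H3 windows but in 3 of 11 H4 windows (27.3%). TATAAA was present in 28 of 57 windows (49.1%), against 12.37% of all windows. The octamer was found in 6 of 16 H2A and 6 of 15 H2B windows, which is 21.1% of the 57, against 1.6% of all windows, and in no H1, H3 or H4 window. Windows of divergent neighbours can cover the same bases, so 1 site can count in both. This was so for the octamers of H2ac1 and H2bc1, H2ac8 and H2bc8, and H2ac12 and H2bc12. The 57 windows are therefore not independent, and their shares for each motif count some sites more than once. The window of H2ac13 lies within the 278 bases that separate it from its divergent neighbour H2bc13. Among close neighbours, with up to 659 bases between them, 14 pairs faced away from each other. Of these, 13 were an H2A and an H2B gene with 175 to 305 bases between them. Pairs further apart, such as H3c3 and H2bc3, were not counted.

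Levels are given as TPM, a share of each library's transcripts that is corrected for annotated length. The libraries held 271.7 to 398.0 megabases of assigned sequence, and protein-coding genes took 18.67% to 22.36% of TPM. Nfil3 itself was at 6.61 and 7.65 TPM in control pre-Baso and 20.5 and 22.5 in control basophils. It was at 0 and 0.624 TPM in deficient pre-Baso and 0.853 and 1.32 in deficient basophils, so all 4 deficient libraries lay below all 4 controls. The receptor gene Cd200r3, used in the sort, was at 223 to 383 TPM in the 8 libraries and the basophil factor Gata2 at 169 to 334. Of genes used to sort against, Kit reached 0.641 TPM and Cd34 1.88.

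Markers of other cells also differed between the populations. The 8 monocyte and macrophage markers summed to 151 to 247 TPM in pre-Baso and 321 to 849 in basophils, and 4 of 8 were called higher in control maturation. The 7 erythroid markers summed to 29.5 to 114 TPM in pre-Baso and 129 to 167 in basophils, and 4 of 6 tested were called higher in controls. The 8 eosinophil markers summed to 15.8 to 97.4 TPM in pre-Baso, 2575 and 35.4 in control basophils, and 188 and 31.0 in deficient basophils, so control basophil 1 stood apart. The 10 neutrophil and granulocyte progenitor markers summed to 1714 to 3109 TPM in pre-Baso and 1228 to 2259 in basophils, with 3 called higher and 2 lower in control maturation. The 2 that fell, the granule genes Ctsg and Mpo, were at -3.16 and -2.83. The mast cell markers Mcpt4 and Mrgprb2 were at 0 in all libraries. The 6 mast cell markers found summed to 0.932 and 1.12 TPM in control pre-Baso and 3.09 and 2.33 in deficient pre-Baso. In basophils they summed to 0.641 and 0.0335 TPM in controls and 1.34 and 0.79 in deficient mice. The 1 tested was higher in deficient cells, by 1.29 in pre-Baso and 0.92 in basophils, without a call. Flt3 did not exceed 0.0687 TPM, but the 6 haematopoietic progenitor markers summed to at least 2.47 TPM in each library. Of 6 T and NK cell markers Trac, Ncr1 and Klrb1c were at 0 in all libraries, but the sum was 129 to 186 TPM in pre-Baso and 53.5 to 76.6 in basophils, nearly all of it Nkg7. Nkg7, the granule gene that was the only one tested, was called lower in both genotypes (-1.50 and -1.22, limma adjusted p = 0.00278 and 0.0148). The 10 basophil markers summed to 21147 to 35466 TPM in pre-Baso and 5486 to 11247 in basophils. Of these, the granule protease gene Mcpt8 was at 6244 and 7888 TPM in control pre-Baso and 969 and 1400.4 in control basophils, against 1.98 to 6.04 in the 4 deficient libraries. Low Mcpt8 and low Nfil3 thus occurred in the same libraries, and their parts in any genotype difference cannot be told apart. The part of these cells in the histone levels was not tested.

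Histone mRNA of all 5 classes, as recovered in these libraries, was high in pre-Baso and low in basophils. How far mRNAs without a poly(A) tail were recovered is unknown, since the priming used to make the libraries was not given. In basophils the summed level of each class was higher in both deficient libraries than in both controls, but no single member passed the test between genotypes. The 65 genes summed to 3516 and 4600 TPM in control pre-Baso and 5181 and 4234 in deficient pre-Baso. They summed to 838 and 874 TPM in control basophils and 1314 and 1765 in deficient basophils. Both deficient basophil libraries thus lay above both control basophil libraries and below all 4 pre-Baso libraries, while the genotypes overlapped in pre-Baso. The ratio of means was 4.74 between control pre-Baso and control basophils, 3.06 between the deficient populations, 1.80 between deficient and control basophils, and 1.16 between deficient and control pre-Baso. As a share of protein-coding TPM the members took 1.88% and 2.06% in control pre-Baso and 0.398% and 0.445% in control basophils. In bulk samples fewer cells in S phase and less histone mRNA per cell cannot be told apart.

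**Figure D1:**
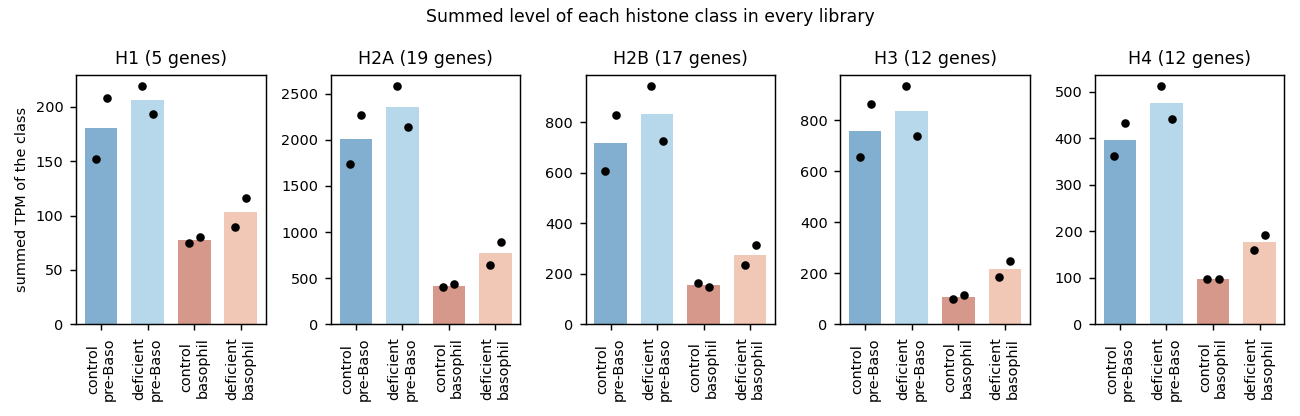
Summed TPM of each histone class (vertical axis) in each library (points) of the 4 groups, with the group mean as a bar from 0. In all 5 classes the deficient basophil libraries sit above the control basophil libraries and below every pre-Baso library, for example 185 and 248 TPM for H3 against 100.8 and 114.7.

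The classes did not hold the same share of this pool in the 2 populations. H2A was the largest class by summed TPM and took 47.8% to 50.7% of the members' TPM in every library. H3 took 18.7% in both control pre-Baso libraries and 12.03% and 13.12% in control basophils. H1 went the other way, from 4.33% and 4.53% in control pre-Baso to 8.89% and 9.15% in control basophils. In deficient basophils H3 took 14.11% and 14.03% and H1 6.82% and 6.60%, between the control basophil and the pre-Baso shares.

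From pre-Baso to basophils in controls, all 61 members that could be tested fell. The test was limma on log2(TPM + 1) over all 12511 genes with at least 1 TPM in at least 2 libraries, with Benjamini-Hochberg adjustment and a gene called at an adjusted p under 0.05. A change is the difference of log2(TPM + 1), which understates the change of low genes. In this comparison 10% of all tested genes were called lower, 1256 genes. The members' median change was -2.15, with single genes from -2.89 to -0.58, while the median over all tested genes was 0.08. The 2 basophil libraries lay below the 2 pre-Baso libraries for 61 of 61 members, against 3294 of all 12511 tested genes. Without control basophil 1, which stood apart by its eosinophil transcripts, 57 members were called and the median was -2.14. The remaining 4 members did not pass the filter on low values and are described with the chromosome 3 cluster.

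H3 genes fell most by class median, by 2.72 on the log2 scale, and all 11 tested were called. H3c1 fell by 2.89 (SE 0.22, limma adjusted p = 0.000381) and H3c3 by 2.87 (SE 0.25, limma adjusted p = 0.000415), the largest changes among H3 genes. H3c8, the smallest p of the class, stood at 54.0 and 71.8 TPM in control pre-Baso and 7.57 and 8.55 in control basophils, a fall with no overlap. The highest H3 genes were H3c15 and H3c11. H3c15 was at 84.4 and 109 TPM in control pre-Baso and 117 and 88.3 in deficient pre-Baso, against 14.1 and 14.2 in control basophils and 23.5 and 32.4 in deficient basophils. H3c11 was at 81.5 and 106 TPM in control pre-Baso and 115 and 93.2 in deficient pre-Baso, against 10.2 and 14.6 in control basophils and 21.8 and 31.5 in deficient basophils. For both genes the deficient basophils lay between control basophils and pre-Baso without overlap.

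H2A genes fell by a median of 2.28 (17 of 17 tested called) and H2B genes by 1.98 (16 of 16). The most abundant members of any class per length were the H2A genes Hist1h2ap and Hist1h2ao. Hist1h2ap stood at 213 and 295 TPM in control pre-Baso, 334 and 278 in deficient pre-Baso, 51.2 and 55.02 in control basophils and 80.0 and 104 in deficient basophils. Hist1h2ao followed it closely in each library (212, 291, 332 and 278 TPM in pre-Baso, then 51.1, 55.8, 82.2 and 103), and 93.5% of the 50-base windows of Hist1h2ao occur in Hist1h2ap, so their separate values are uncertain. The largest H2A change was that of H2ac15, which fell by 2.74 (SE 0.22, limma adjusted p = 0.000384), followed by H2ac10 at -2.47. H2bc3, the most abundant H2B gene, was at 88.3 and 116 TPM in control pre-Baso and 128 and 92.2 in deficient pre-Baso, against 13.6 and 12.8 in control basophils and 27.1 and 37.5 in deficient basophils. It fell by 2.85 in controls (SE 0.23, limma adjusted p = 0.000384), the largest H2B change, with H2bc14 next at -2.54. The second H2B gene, H2bc15, was at 65.3 and 87.7 TPM in control pre-Baso and 17.8 and 15.7 in control basophils, without overlap.

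H4 genes fell by a median of 1.89 and H1 genes by 1.25, with 12 of 12 and 5 of 5 called. Hist1h4n and Hist1h4m were the highest H4 genes. Hist1h4n stood at 42.5 and 49.4 TPM in control pre-Baso, 54.6 and 49.3 in deficient pre-Baso, 15.7 and 15.4 in control basophils and 21.9 and 24.5 in deficient basophils. Hist1h4m stood at 37.1 and 44.8, 56.4 and 45.1, 12.1 and 11.5, and 21.2 and 24.7 TPM in the same groups, and 89.8% of its windows occur in Hist1h4n. H4c6 fell most, by 2.78 (SE 0.26, limma adjusted p = 0.000505), followed by H4c12 at -2.32. The linker histone H1f4 was at 83.3 and 118 TPM in control pre-Baso and 40.5 and 41.4 in control basophils, a fall of 1.25 (SE 0.20, limma adjusted p = 0.00417). H1f2 was at 37.9 and 47.0 TPM in control pre-Baso and 27.1 and 28.5 in control basophils, and its fall of 0.58 was the smallest of all members (SE 0.17, limma adjusted p = 0.0383). H1f5 went from 23.2 and 33.8 TPM to 3.37 and 6.64, a fall of 2.33, the largest of the H1 genes on the log2(TPM + 1) scale. H1f1 was next at -1.57, from 2.61 and 3.02 TPM to 0.156 and 0.421, levels at which this scale understates the change. Members of the 5 classes thus fell by unequal amounts, and the difference between classes was not tested.

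**Figure D2:**
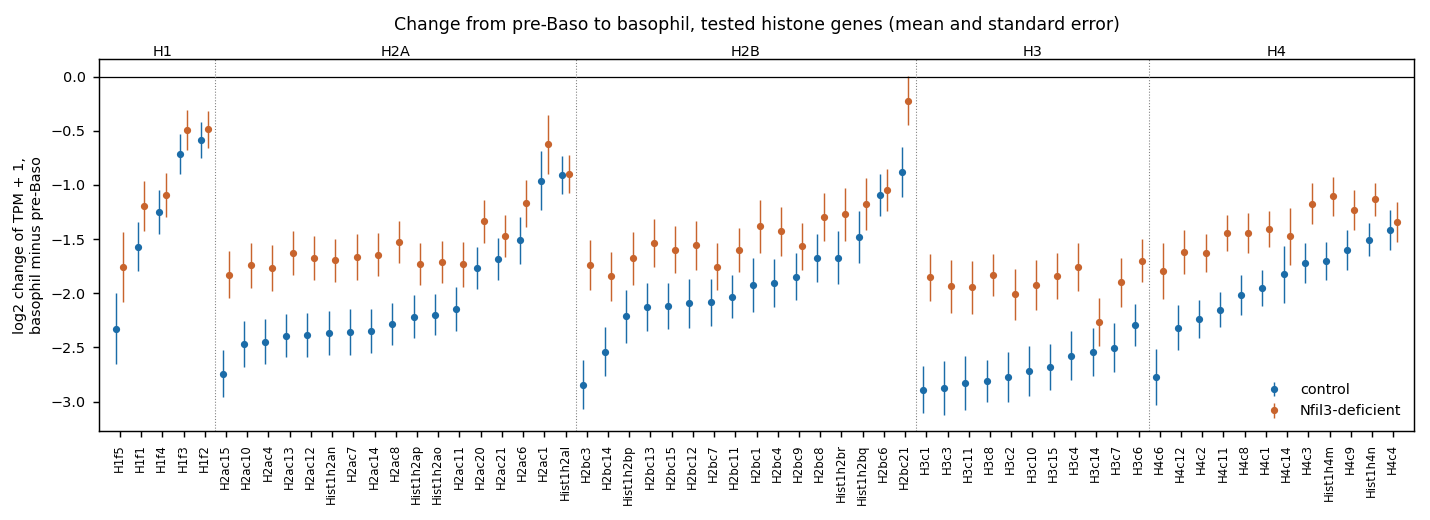
Change of log2(TPM + 1) from pre-Baso to basophil (vertical axis) for the 61 tested members, by class, in controls (blue) and in Nfil3-deficient mice (orange), with the standard error of the fit as a bar. H3 genes lie lowest in controls (class median -2.72), H1f2 lies nearest 0 at -0.58, and each of the 61 orange points lies above the blue point of the same gene.

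Without Nfil3 most of the genes also fell between pre-Baso and basophils. In the deficient populations 57 of 61 tested members were called lower, with a median of -1.60 over the 61, while 4.11% of all tested genes (514) were called lower and the median over all tested genes was 0.10. All 61 members, called or not, were lower in both deficient basophil libraries than in both deficient pre-Baso libraries. This was so for 2718 of all 12511 tested genes. Of all genes, 849 were called higher and 514 lower, and with median-of-ratios scaling the split was 887 and 1029. The 4 members not called were H1f2 (-0.49), H1f3 (-0.49), H2ac1 (-0.63) and H2bc21 (-0.22). The class medians were -1.90 for H3, -1.66 for H2A, -1.55 for H2B, -1.43 for H4 and -1.09 for H1. H3c14 had the largest change, -2.27 (SE 0.22, limma adjusted p = 0.00401), and H3c2 followed at -2.01. The largest changes of the other classes were -1.83 for H2ac15, -1.84 for H2bc14, -1.79 for H4c6 and -1.76 for H1f5. The count of members called depended most on deficient pre-Baso 1 and then on deficient basophil 1. The count over all genes depended on each deficient library. Without deficient pre-Baso 1 the members' median was -1.45, against 0.10 over all tested genes. Without deficient basophil 1 the members' median was -1.40, against 0.14 over all tested genes.

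In pre-Baso no difference between the genotypes passed the test for any member. Of 61 tested members 0 were called by limma and 0 had an unadjusted p under 0.05, where 0.0639% of all tested genes (8) were called in either direction and 1.63% had an unadjusted p under 0.05 with a higher value. The members' median was 0.21 and 58 of 61 lay above 0. Both deficient libraries lay above both controls for 9 members (14.8%), against 11.2% of all tested genes. Of these 9, 8 were H4 genes, among them H4c1 at 0.30, and the other was H1f2 at 0.24. Below 0 were H1f1 (-0.16), H2ac1 (-0.11) and H2bc21 (-0.03), and H2bc21 turned to 0.01 when TPM were rescaled to protein-coding genes. Without control pre-Baso 1 the members' median was 0.03 with 34 members above 0, and without deficient pre-Baso 1 it was 0.06 with 46.

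In basophils the members were higher without Nfil3 in nearly every case, yet none passed the test across all genes. All 61 tested members lay above 0, with a median of 0.78 against -0.01 over all tested genes, and both deficient libraries lay above both controls for 58 of 61, against 17.2% of all tested genes. By limma 0 members were called, where 0.056% of all tested genes (7) were called in either direction. At an unadjusted p under 0.05 the count was 49 members, all higher, against 4.91% of all tested genes with a higher value. With 1 library left out the count ran from 33 to 51: it was 33 without deficient basophil 2, at a median of 0.64 and a smallest adjusted p of 0.588, 40 without control basophil 2, and 46 without control basophil 1, at a median of 0.79. Among markers of other cells, the granule protease gene Ctsg was called higher in deficient basophils, at 375 and 592 TPM against 85.1 and 90.4, a difference of 2.41 (SE 0.21, limma adjusted p = 0.00505). Of the 10 neutrophil and granulocyte progenitor markers, Ctsg was the only 1 called. Only 2 of the 10 lay above 0, and their median was -0.05. All 7 tested eosinophil markers lay below 0 in the same comparison, with none called. The part of either in the histone levels was not tested. The smallest adjusted p was that of H3c8, 0.155, for a difference of 1.09 (SE 0.19, limma), with 16.7 and 20.1 TPM in deficient against 7.57 and 8.55 in control basophils. H4c6 differed most, by 1.25 (SE 0.26, limma adjusted p = 0.215), with 14.7 and 14.5 against 4.06 and 7.47 TPM. H2bc3 differed by 1.21 (SE 0.23, limma adjusted p = 0.195) from the values given above, and H2ac13, the smallest p among H2A genes, by 1.02 (SE 0.20, limma adjusted p = 0.215). Class medians were 0.94 for H3, 0.89 for H2A, 0.84 for H4, 0.70 for H2B and 0.34 for H1. The 2 highest H1 genes differed by 0.38 (H1f4) and 0.34 (H1f2), and the smallest p in that class was that of H1f5, at 0.75. With TPM rescaled to protein-coding genes, 3 of 59 members were called higher by limma: H3c8, H2bc3 and Hist1h4m, with a smallest adjusted p of 0.0384.

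**Figure D3:**
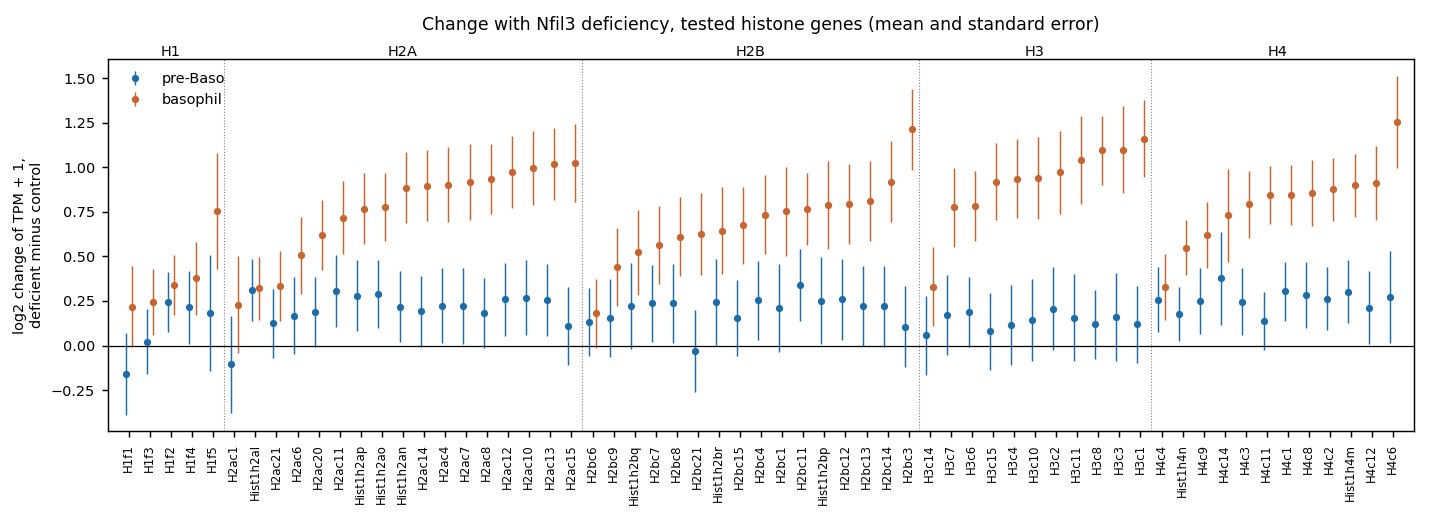
Change of log2(TPM + 1) with Nfil3 deficiency (vertical axis) for the 61 tested members, by class, in pre-Baso (blue) and in basophils (orange), with the standard error of the fit as a bar. All 61 orange points lie above 0 (median 0.78), while blue points lie around a median of 0.21 and 3 of them lie below 0.

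The difference of the genotype effect between the populations, basophils minus pre-Baso, was above 0 for 61 of 61 tested members, with a median of 0.55 against 0.03 over all tested genes. By limma 0 members were called, where 0 of all 12511 genes were called (0%). At an unadjusted p under 0.05 there were 23 members, all above 0, against 3.68% of all tested genes above 0. That count depended on single libraries: it was 3 without deficient basophil 2, 4 without control pre-Baso 2, 4 without deficient pre-Baso 2, 8 without control basophil 1, 15 without control basophil 2 and 37 without control pre-Baso 1. H2bc3 had the largest value, 1.11 (SE 0.32, limma adjusted p = 0.847), and H3c8 the smallest adjusted p, 0.839, at 0.98. H2ac15 (0.92), H4c11 (0.71) and H1f5 (0.57) had the smallest p of their classes. A larger effect of Nfil3 loss in basophils than in pre-Baso was therefore not shown for any member. The control basophil libraries enter both the maturation and the genotype comparison, so the fall in controls and the difference in basophils are not independent.

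The genes fell in every cluster, and differences between clusters were not tested. In controls the median change was -2.21 for the 24 genes of the first block on chromosome 13, -2.05 for the 30 of the second and -1.80 for the 6 tested genes on chromosome 3. Hist1h2al, apart from the clusters, fell by 0.91 and stood at 57.5 and 74.6 TPM in control pre-Baso against 33.9 and 34.9 in control basophils. Of its windows 67.6% occur in another gene, and the annotated gene Gm44341 overlaps it. Divergent H2A and H2B neighbours differed from each other by 0.11 to 0.97 on the log2 scale (median 0.40 over 13 pairs). The pair H2bc1 and H2ac1 stood furthest apart, at -1.93 and -0.96, and H2ac1 was below 2 TPM in every library.

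The chromosome 3 cluster held the 4 members that were not tested. H2ac19, H3c13 and H2bc18 were listed at 0 TPM in all 8 libraries, and H2ac18 was listed at 0 in 7 libraries and at 40.4 TPM in deficient basophil 2. Every 50-base window of these 4 genes is also part of an overlapping gene of the annotation, and no strand option is recorded for the counting. The overlapping genes, chosen after their values were seen, did carry reads. Gm20632, which covers H2ac19, was at 18.1 to 33.1 TPM. Gm20628, which covers H3c13 and H2bc18, was at 33.3 to 47.3 TPM in pre-Baso and 5.95 to 13.5 in basophils, so its populations did not overlap. Gm20633, which covers H2ac18, was at 12.2 to 28.1 TPM in 7 libraries and at 1.85 in deficient basophil 2, the library in which H2ac18 had its only value. In that library H3c14, whose windows are all shared with Gm20634, was at 9.46 TPM against 13.5 in deficient basophil 1, and Gm20634 at 14.6 against 2.71. How reads were divided between these overlapping genes was not tested, and the H3c14 changes above are uncertain for this reason. H2bc21, by contrast, shares no window with another gene and was at 1.88 and 2.94 TPM in control pre-Baso, 0.653 and 1.03 in control basophils and 1.53 and 2.15 in deficient basophils.

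Shared sequence touched many members, and the fall was also seen in those it touched least. In 37 of 65 members at least 50% of windows occurred in another gene. The 14 members with under 25% shared windows were all called lower in controls, with a median of -1.54, against -2.24 for the 33 tested members at 50% or more. In basophils the median genotype difference was 0.47 for these 14 and 0.81 for the 33. Across the 61 tested members the Spearman correlation of the change in controls was -0.341 with the share of windows and 0.294 with annotated length, given as a description since members share libraries and reads. By annotated 3′ end, the 20 tested members whose annotation stops within 100 bases of the stem-loop had a median of -2.22 in controls, the 18 that run further -1.77, and the 23 without a match -2.13. The long annotations included H1f3 (7425 bases), H1f2 (1560) and H2bc6 (2480), which changed by -0.71, -0.58 and -1.09, and H2bc6 overlaps H1f4. These groups were set after earlier results were known and their differences were not tested.

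**Figure D4:**
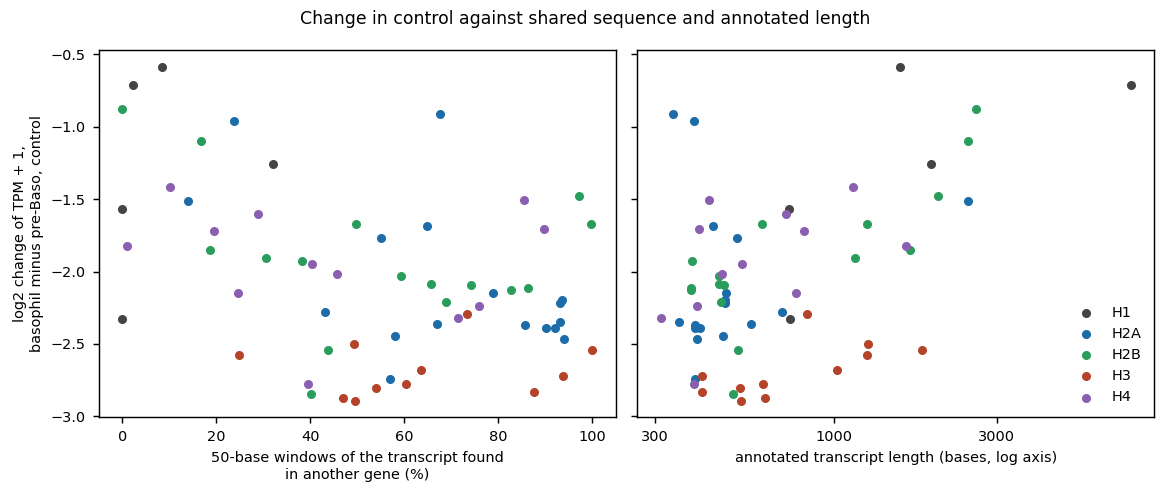
Change of log2(TPM + 1) from pre-Baso to basophil in controls (vertical axes) for the 61 tested members against the percentage of 50-base windows shared with another gene (left) and the annotated transcript length in bases on a log axis (right), coloured by class. Members with the smallest falls, such as H1f3 at -0.71, include long annotations with few shared windows, and the 14 members under 25% shared lie below 0.

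Of 22 listed genes that make and process histone mRNA 18 were tested. In the maturation of controls 4 were called lower (22.2%, against 10% of all tested genes), 0 higher and 14 not. E2f1, which drives S phase genes, fell by 1.23 and Eri1, an exonuclease that trims histone mRNA, by 0.89. Srrt, a cap-binding partner, fell by 0.68. Slbp, which binds the stem-loop, stood at 23.6 and 34.5 TPM in control pre-Baso and 16.9 and 17.7 in control basophils, a fall of 0.69 (SE 0.20, limma adjusted p = 0.0367). Npat was at -0.30 (limma adjusted p = 0.38) at 0.585 to 1.28 TPM. In deficient mice 1 of 18 was called lower (5.56%, against 4.11% of all tested genes), Lsm1, a decay factor, at -0.68, while Slbp was at -0.53 without a call. The list median was -0.28 in controls and -0.09 in deficient mice, and no member was called in either genotype comparison.

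Among 20 histone chaperone and import genes, all tested, 8 were called lower in control maturation (40%, against 10% of all tested genes). Another 2 were called higher, where 1576 of all 12511 tested genes were called higher. The list median was -0.59. Asf1b, a chaperone of new H3 and H4, fell by 2.93, from 22.9 and 27.7 TPM to 2.37 and 2.53. Chaf1b, a subunit of the assembly factor CAF-1, fell by 1.55, Rbbp7 by 1.16 with Mms22l at -1.005. In deficient mice 2 were called lower (10%, against 4.11% of all tested genes), Asf1b at -1.84 and Chaf1b at -1.013. Daxx at 0.82 and Ubn1 at 0.69, genes of H3.3 chaperone complexes, were the 2 called higher, where 849 of all 12511 tested genes were called higher. In basophils none was called between genotypes, and Asf1b was at 4.38 and 7.34 TPM in deficient against 2.37 and 2.53 in control, a difference of 0.96 (limma adjusted p = 0.288).

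The replication-independent variants divided. Of 12 listed genes 11 were tested. In control maturation 6 were called lower (54.5%, against 10% of all tested genes) and 0 higher, with a median of -0.92. H2ax, which marks DNA breaks when phosphorylated, fell by 2.70 and the centromeric H3 gene Cenpa by 2.61. H2az1 fell by 1.997, from 285 and 376 TPM to 80.0 and 82.6, and H1f10 by 1.89, H1f0 by 1.41 and H2az2 by 0.92. The H3.3 genes were not called: H3f3b was at 161 and 225 TPM in control pre-Baso and 201 and 204 in control basophils (0.09, and -0.02 with median-of-ratios scaling), and H3f3a was at -0.14. In deficient maturation 4 were called lower (36.4%, against 4.11% of all tested genes). They were H2ax, Cenpa, H2az1 and H1f10, at -1.61, -1.66, -1.41 and -1.07. H3f3a was at 0.00 there on the log2 scale and at 0.02 when rescaled to protein-coding genes, and H3f3b at 0.23. Between genotypes in basophils no variant was called, and H2ax differed by 1.03, Cenpa by 0.92 and H2az1 by 0.61, with limma adjusted p from 0.228 to 0.43.

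Reference genes of the cell cycle also fell. All 17 S phase genes were called lower in control maturation, against 10% of all tested genes, with a median of -1.83. In deficient maturation 11 of 17 were called lower (64.7%, against 4.11% of all tested genes), with a median of -1.08. Rrm2, a ribonucleotide reductase subunit, fell by 2.85 and Ccna2, cyclin A2, by 2.66 in controls. Ccne2, cyclin E2, fell by 1.83 and Tyms, thymidylate synthase, by 1.81. All 6 G2 and M genes were called lower in both genotypes, with medians of -2.94 and -1.72. Between genotypes in basophils all 17 S phase genes and all 6 G2 and M genes lay above 0, with medians of 0.56 and 1.17. The median over all tested genes was -0.01. Of these lists, 0 of 17 S phase genes and 1 of 6 G2 and M genes were called, against 0.056% of all tested genes. That gene, Birc5, was at 15.1 and 28.4 TPM in deficient and 2.60 and 2.50 in control basophils, a difference of 2.61 (SE 0.29, limma adjusted p = 0.0231). Rrm2 differed by 1.25 and Ccna2 by 0.96 without a call.

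**Figure D5:**
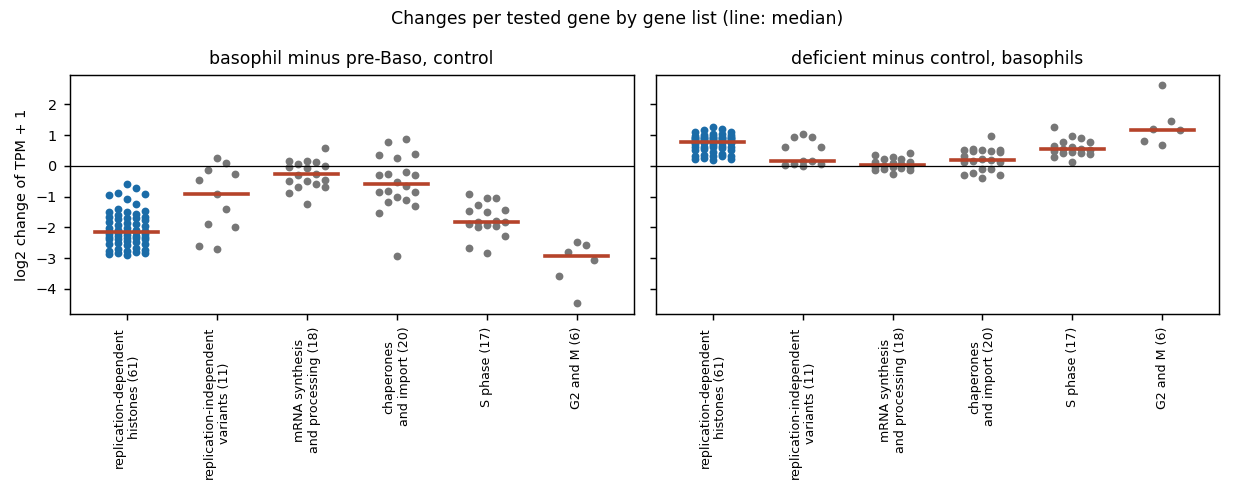
Change of log2(TPM + 1) per tested gene (points) with the list median (line) for the histone genes and 5 related lists, for control maturation (left) and for the genotype in basophils (right). The median of the replication-dependent histone genes is -2.15 on the left and 0.78 on the right. It is -1.83 and 0.56 for S phase genes and -2.94 and 1.17 for G2 and M genes. For mRNA synthesis and processing genes it is -0.28 and 0.02, for chaperones and import -0.59 and 0.20, and for variants -0.92 and 0.16.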

How the data were processed

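Bulk RNA-seq of 8 libraries was used, prepared from total RNA with a SMARTER mRNA-Seq kit, per the labels' protocols; its priming was not given in the sources used here. HISAT2 and mm10 are named in the submitters' processing notes. StringTie 2.1.4 was run on the Ensembl release 101 annotation with its transcripts only (-e) and without a strand option, per the file headers. The authors deposited other values than counts: TPM, FPKM and coverage per transcript, so read depth is known only as coverage times length. TPM were summed per gene.

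Log2(TPM + 1) of the 12511 genes with at least 1 TPM in at least 2 libraries was fitted with limma 3.58.1 in R 4.3.3, with a mean per group, a trended prior and 4 residual degrees of freedom. The test was checked on simulated data. Adjustment by Benjamini-Hochberg ran over all 12511 genes within each of 5 contrasts, which share groups. The histone genes and lists were chosen with earlier results of these data known. Named genes were, per class, the 2 most abundant, the smallest p, the largest against the class and the 2 largest called, and up to 4 genes per list by p. Alternatives were other pseudocounts, filters and scalings, FPKM, only the compared groups, a replicate block and leaving out each library. Stem-loops came from GENCODE M21 transcripts of the same length as the deposited ones (65 of 65), promoters from RefSeq. Shared sequence is the share of 50-base windows of a transcript found in any other gene.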

Additional observations from a re-analysis of the deposited data

How the results depend on the processing

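The number of members called kept within 1.5 times its value in every alternative for control maturation (57 to 61) and stayed at 0 in pre-Baso and for the difference of the genotype effect. In basophils it stayed at 0 except when TPM were rescaled to protein-coding genes, which called 3. In deficient maturation, leaving out 1 library gave 0 to 57 called, the low values being 0 without deficient pre-Baso 1 and 37 without deficient basophil 1, and no filter on low values gave 43. A group left with 1 library is assumed to vary like the others. Deviations by replicate number correlated between groups at -0.054 to 0.202, highest between control and deficient basophils. With 2 libraries per group this cannot decide whether samples were paired. With the replicate block 61, 57, 0, 0 and 0 members were called in control maturation, deficient maturation, pre-Baso, basophils and the difference.

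The number of all genes called moved more. Control maturation called 2832 genes, but 1516 without a filter and 1397 to 2651 with 1 library left out. Deficient maturation called 1363, but 298 without a filter, 562 with only the compared groups and 19 to 1237 with 1 library left out. The basophil genotype called 7 genes, but 18 without a filter or rescaled to protein-coding genes, 16 with a pseudocount of 0.1, 4 with only the compared groups and 6 to 17 with 1 library left out. The pre-Baso genotype called 8, but 23 without a filter, 5 rescaled to protein-coding genes, 3 with only the compared groups and 5 to 9 with 1 library left out. The difference called 0, but 2 with a pseudocount of 0.1 or rescaled, and 0 to 2 with 1 library left out. The cause was not tested.

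Some small values changed sign. In pre-Baso H2bc21 was 0.0076 with FPKM, 0.0032 with median-of-ratios scaling, 0.0100 rescaled to protein-coding genes. H3f3a in deficient maturation was 0.019 rescaled to protein-coding genes, and H3f3b in control maturation -0.016 with median-of-ratios scaling. With 1 library left out, the pre-Baso difference ran from -0.37 to 0.047 for H1f1, -0.467 to 0.256 for H2ac1, -0.26 to 0.19 for H2bc21 and -0.028 to 0.40 for H3c6. The maturation change ran from -0.11 to 0.097 for H3f3a and -0.0222 to 0.475 for H3f3b in deficient mice, and from -0.15 to 0.33 for H3f3b in controls.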
